A study of Homo sapiens with 4 samples.

Results

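Transcripts of the epidermal growth factor receptor (EGFR) family and of its near signalling partners were followed in KYSE410, an established cell line from a human squamous cell carcinoma of the esophagus, with and without the small molecule YM155. The list held 10 genes, namely the receptor genes EGFR, ERBB2 and ERBB3, the ligand genes AREG, EREG, HBEGF, TGFA and EPGN, the feedback inhibitor gene ERRFI1 and the exchange factor gene VAV3. Every array probe set annotated with exactly 1 gene symbol equal to a listed name was taken. That gave 30 probe sets for 8 of the 10 genes, out of 19775 genes with such a probe set on the array. AREG and EPGN matched no probe set by this rule and were not analysed here.

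The series held 2 arrays of untreated cells and 2 of cells given 20 nM YM155 for 6 h, all of the same line grown in serum-containing RPMI medium. YM155 is known as a suppressor of the expression of BIRC5, which encodes the apoptosis inhibitor survivin. The treatment protocol names cisplatin instead (10 mM, 12 h), while the treatment labels, source names and title name YM155 and were followed. The titles of the YM155 arrays carry the marks B1 and B2, whose meaning is not given. The labels do not say whether the arrays of a group came from separate cultures, so p-values measure only how these arrays scatter, and that scatter may be technical.

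EGFR and its relatives are receptor tyrosine kinases of the cell surface that pair with one another when a ligand binds. ERBB2 has no known ligand of its own, and ERBB3 has little kinase activity and signals by pairing with the other receptors. The ligands are made as membrane proteins and are shed by proteases. Bound receptors drive the RAS-ERK and PI3K-AKT pathways, and EGFR is often abundant in squamous carcinomas.

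Probe sets below the 40th percentile of mean log2 intensity (3.32) were treated as too dim to test, and 24 of the 30 probe sets lay above it. Each gene was represented by its brightest probe set, and all 8 measured genes were tested among 14043 genes. The untreated arrays differed from each other at least 2-fold at 1690 of 32768 probe sets and the YM155 arrays at 56. Untreated replicate 1 differed that much from the YM155 arrays at 739 and 850 probe sets, fewer than from untreated replicate 2. For untreated replicate 2 the counts against the YM155 arrays were 1811 and 2140. The choice of untreated array therefore bears on many values below. Of 11 squamous epithelium markers 8 had a probe set, and all 8 were above the filter, from a mean log2 intensity of 7.88 for the desmosomal cadherin gene DSG3 to 12.8 for SFN. Their summed linear intensity was 15836 and 16656 without the drug and 21339 and 22069 with it. Such a sum gives most weight to the brightest gene, SFN. In log2, 7 of the 8 had positive differences, beside 47.1% of all genes. ITGB4 stood at −0.41 on its brightest probe set, without overlap of the arrays, and the arrays of CDH1 overlapped. The part of these marker differences in the results below was not tested. Of the markers with a probe set, 3 of 7 fibroblast, 3 of 6 leukocyte, 2 of 5 endothelial and 2 of 5 glandular ones were above the filter. The brightest of these lists were COL1A1, CD3D, PECAM1 and CDX2, at a mean log2 intensity of 6.16, 4.24, 4.29 and 4.04. The leukocyte marker PTPRC and the endothelial marker KDR were the dimmest of their lists, at 2.09 and 2.01. The summed intensities of the fibroblast, leukocyte, endothelial and glandular lists lay between 51.3 and 142. The log2 ratio of 3' to 5' ACTB signal, a measure of RNA and labelling quality, was 2.72 and 2.18 without the drug and 2.10 and 2.95 with it, so the groups overlapped. The same ratio for GAPDH was 0.042 and 0.043 without the drug and 0.033 and 0.21 with it, highest on YM155 replicate 2.

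Transcripts of VAV3 and ERBB3 stood lower after YM155, by 3.56-fold and 1.95-fold, and those of ERRFI1 and TGFA stood higher, by 1.68-fold and 1.39-fold. ERBB2 lay slightly lower, and EGFR, HBEGF and EREG had arrays that overlapped between the groups. No member passed an adjusted p of 0.05 in limma, where 0% of all genes did (0 of 14043, smallest adjusted p = 0.163). At an unadjusted limma p under 0.05, 2 members were lower and 2 higher, beside 7.48% and 5.23% of all genes tested. The members were chosen with earlier results of these data known. Counts of members and the ranks given below are therefore descriptions only, and no excess in the family can be read from them. Both YM155 arrays lay below both untreated arrays for 3 members and above them for 2, beside 25.6% and 19.3% of all genes. Of the 8 members 3 had a positive difference, beside 47.1% of all genes, and the median difference was −0.06 log2 for the members and −0.02 log2 for all genes. In whole-culture RNA, fewer cells that express a gene and less RNA per cell cannot be told apart.

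**Figure D1:**
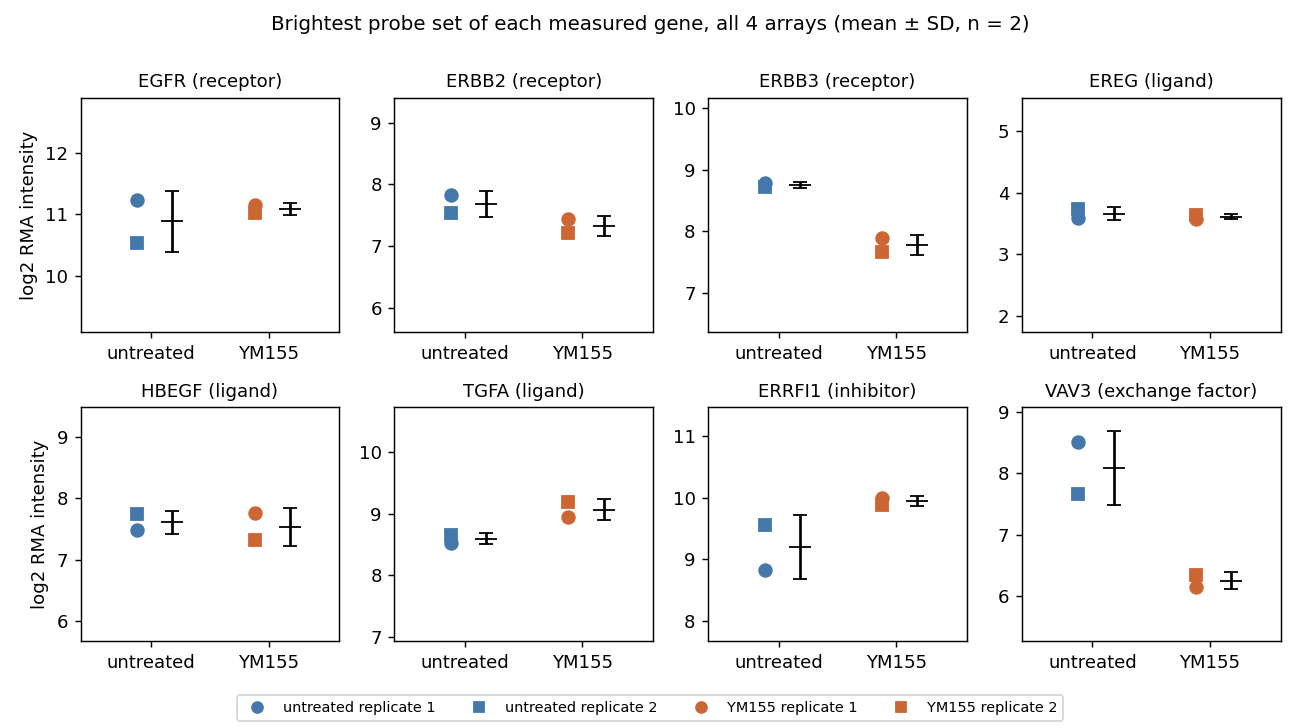
Log2 intensity of the brightest probe set of each of the 8 measured genes on the 2 untreated and 2 YM155 arrays, with the mean and SD of each group beside the points; every panel spans the same height in log2 units. VAV3 and ERBB3 lay lower on both YM155 arrays, ERRFI1 and TGFA higher, and the untreated arrays were far apart for EGFR, ERRFI1 and VAV3.

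VAV3 encodes a guanine nucleotide exchange factor that acts downstream of receptor tyrosine kinases, EGFR among them. Its promoter window is shown here with those of ERRFI1 and TGFA because these 3 genes stood farthest from untreated among members with a RefSeq window. ERBB3 had no entry. Each sequence is the 250 bases before a RefSeq transcription start on GRCh38.p14, written 5′ to 3′ on the gene's strand, the minus strand in all 3 cases. Capitals mark the GC box GGGCGG, the TATA element TATAAA and the AP-1 element TGACTCA on either strand, motifs that were picked after the differences were known. The VAV3 window, at chr1:107688500-107688749, precedes a start that lies inside the gene and not at its outermost start. The ERRFI1 window is chr1:8026310-8026559 and the TGFA window chr2:70553827-70554076, both at the gene's outermost start.
VAV3: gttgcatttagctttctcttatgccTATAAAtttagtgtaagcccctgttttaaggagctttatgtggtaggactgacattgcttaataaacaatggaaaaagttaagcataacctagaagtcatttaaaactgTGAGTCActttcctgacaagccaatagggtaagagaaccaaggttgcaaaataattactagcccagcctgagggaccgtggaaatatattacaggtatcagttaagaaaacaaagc
ERRFI1: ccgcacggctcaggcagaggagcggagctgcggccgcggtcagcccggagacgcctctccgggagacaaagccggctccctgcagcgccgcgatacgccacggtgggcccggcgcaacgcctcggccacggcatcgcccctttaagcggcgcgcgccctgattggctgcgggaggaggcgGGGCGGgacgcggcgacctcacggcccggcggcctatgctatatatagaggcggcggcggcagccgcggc
TGFA: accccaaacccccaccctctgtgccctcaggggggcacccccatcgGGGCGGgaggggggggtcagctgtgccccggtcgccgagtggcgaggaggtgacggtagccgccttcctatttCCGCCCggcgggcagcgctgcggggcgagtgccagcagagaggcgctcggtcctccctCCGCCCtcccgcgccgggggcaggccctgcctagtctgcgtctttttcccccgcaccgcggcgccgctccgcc

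The VAV3 window held 1 TATA element, 225 bases before the start, and 1 AP-1 element, 116 bases before it, at a GC content of 37.2%. The ERRFI1 window held 1 GC box at 70 bases and had a GC content of 75.2%. The TGFA window held 3 GC boxes, at 204, 131 and 73 bases, at 75.6% GC. Among all 35116 RefSeq windows of this length, 42.6% held the GC box, 10.7% the TATA element and 4.2% the AP-1 element. In all, 9 windows belonged to 7 of the 8 measured genes, and 4 of them held the GC box, 3 the TATA element and 2 the AP-1 element. The other window with the AP-1 element precedes a start inside EGFR. A match is only a run of letters, and no binding was measured.

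The brightest VAV3 probe set, 218807_at, read 8.51 and 7.66 log2 without the drug and 6.16 and 6.35 with it. Both YM155 arrays were lower than both untreated arrays, by more than the distance between the untreated arrays. The difference of −1.83 ± 0.31 log2 (SE, n = 2 per group; limma 95% interval −2.64 to −1.03, adjusted p = 0.192) was the 11th most negative of 14043 genes. A further probe set, 218806_s_at, read 6.73 and 5.90 without the drug and 5.04 and 4.86 with it, also without overlap. Its difference was −1.37 ± 0.31 log2 (SE; limma adjusted p = 0.318 over probe sets). The last VAV3 probe set, 224221_s_at, lay below the filter on every array, at 2.42 to 2.98 log2. The size of the VAV3 difference depended on the reference array, since the YM155 mean differed by −2.25 log2 from untreated replicate 1 and by −1.41 from untreated replicate 2. Without untreated replicate 1, VAV3 was the only member that limma called, as lower (adjusted p = 0.0407), when 3.71% of all genes were called lower. In the fit over probe sets without that array, neither 218807_at nor 218806_s_at was called. Both fits take the spread of the 1 remaining untreated array to equal that of the YM155 arrays. That remaining array, untreated replicate 2, differed at least 2-fold from the YM155 arrays at 1811 and 2140 probe sets, beside 739 and 850 for untreated replicate 1. With untreated replicate 2 left out instead, VAV3 was not called, although its difference was larger, at −2.25 log2.

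ERBB3, the receptor that pairs with EGFR or ERBB2, had the most even untreated arrays of the members beyond 0.7 log2. Its brightest probe set, 226213_at, read 8.78 and 8.71 log2 without the drug and 7.90 and 7.67 with it. The YM155 arrays were both lower, and the untreated arrays nearly coincided. The difference was −0.97 ± 0.14 log2 (SE, n = 2 per group; limma 95% interval −1.34 to −0.59, adjusted p = 0.184), the 178th most negative of 14043. Probe set 202454_s_at was at 7.17 and 7.20 without the drug and 6.18 and 6.16 with it. It differed by −1.01 ± 0.13 (SE; limma adjusted p = 0.228 over probe sets). Against untreated replicates 1 and 2 taken singly, the brightest probe set gave −1.0 and −0.93, so here the choice of reference made little difference. The remaining 3 ERBB3 probe sets were dim, at 2.70 to 4.76 log2, and differed by −0.15, −0.03 and 0.13. They are annotated from other transcript records than the bright pair, and their arrays overlapped.

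ERBB2, the preferred partner of the other receptors, read 7.83 and 7.53 log2 without the drug and 7.44 and 7.21 with it on its brightest probe set, 216836_s_at. The YM155 arrays lay below the untreated ones, but by 0.09 log2 at the nearest pair. The difference was −0.36 ± 0.17 log2 (SE, n = 2 per group; limma 95% interval −0.81 to 0.10, adjusted p = 0.487), or −0.51 to −0.21 with single arrays left out. The other 2 ERBB2 probe sets lay near the filter, at 3.06 to 3.78 log2, where a signal is not shown to exceed background.

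EGFR itself gave no common direction. Its 9 probe sets had 5 positive and 4 negative differences, from −0.69 to 0.64 log2. The brightest, 201983_s_at, read 11.23 and 10.53 log2 without the drug and 11.16 and 11.02 with it, so that the YM155 arrays lay between the untreated ones. Its difference was 0.21 ± 0.26 log2 (SE, n = 2 per group; limma 95% interval −0.48 to 0.90, adjusted p = 0.801). That interval reaches 0.90 log2, so a moderate change of EGFR was not excluded by these arrays.

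On the 5 brightest EGFR probe sets the untreated arrays lay farther apart than the YM155 arrays, and in opposite directions. On 224999_at untreated replicate 2 was at 9.65 log2, below untreated replicate 1 at 10.74 and the YM155 arrays at 10.73 and 10.66. Probe set 201983_s_at, above, had the same order, with untreated replicate 2 lowest. On 211607_x_at untreated replicate 2 was instead the highest, at 7.21 log2, beside 5.99 in untreated replicate 1 and 5.95 and 5.86 in YM155 arrays. On 210984_x_at it was again highest, at 7.25, beside 6.21 in untreated replicate 1 and 6.30 and 5.99 in YM155 arrays. Probe set 201984_s_at also had its highest value there, at 9.97, beside 9.33, 9.72 and 9.63. Untreated replicate 2 minus replicate 1 was thus −0.70 and −1.09 log2 for the former pair and 1.22, 1.04 and 0.64 for the latter 3. Untreated replicate 1 and the YM155 arrays lay within 0.40 log2 of each other on each of these 5 probe sets. The suffix _x_at marks probe sets that may bind other transcripts, and _s_at those shared by several transcripts. The remaining EGFR probe sets were dim: 1565484_x_at read 3.34 on both untreated arrays and 3.64 and 4.31 on YM155 arrays, and the other 3 lay between 3.02 and 4.48.

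**Figure D2:**
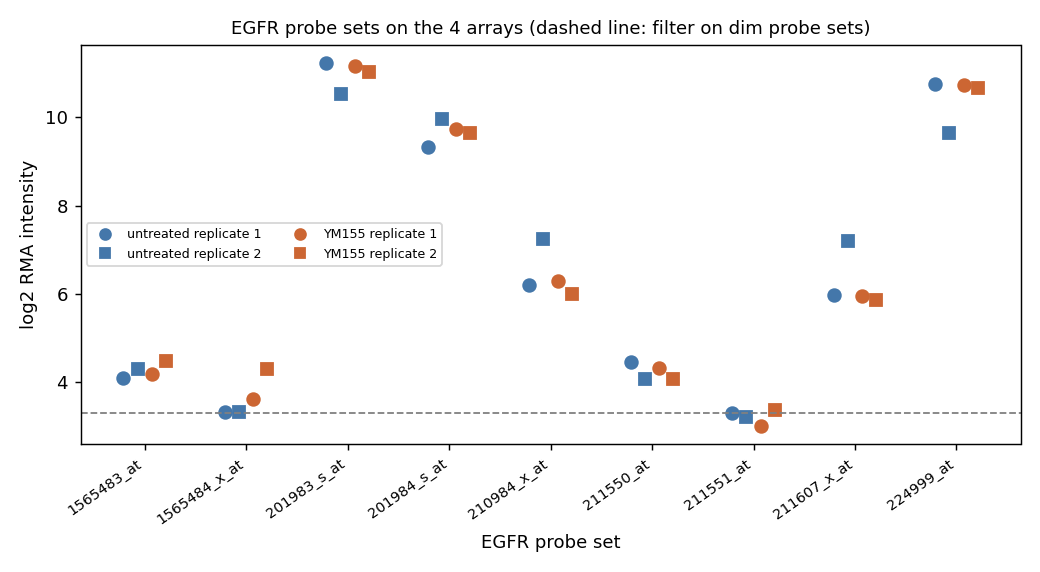
Log2 intensity of the 9 EGFR probe sets on the 4 arrays, with the filter limit of 3.32 as a dashed line. Untreated replicate 2 (blue square) lay below the other arrays on 201983_s_at and 224999_at and above them on 201984_s_at, 210984_x_at and 211607_x_at.

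Among the ligands, only TGFA differed without overlap of the arrays. TGFA encodes transforming growth factor alpha, a ligand of EGFR that squamous cells make for themselves. Its brightest probe set, 205016_at, read 8.53 and 8.66 log2 without the drug and 8.95 and 9.19 with it. The difference was 0.47 ± 0.15 log2 (SE, n = 2 per group; limma 95% interval 0.08 to 0.87, adjusted p = 0.329). Both other TGFA probe sets also had YM155 arrays above untreated ones: 205015_s_at read 5.86 and 6.00 against 6.64 and 6.16, and 211258_s_at 4.11 and 4.20 against 4.51 and 4.27. Their differences were 0.47 ± 0.21 and 0.24 ± 0.16 log2 (SE; limma adjusted p = 0.505 and 0.629 over probe sets). The 3 probe sets share a gene and the same 4 RNA samples and are not independent.

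HBEGF encodes heparin-binding EGF-like growth factor, a ligand of EGFR. Its brightest probe set, 203821_at, read 7.48 and 7.75 log2 without the drug and 7.76 and 7.32 with it. The YM155 arrays lay on both sides of the untreated ones, and the difference was −0.07 ± 0.21 log2 (SE, n = 2 per group; limma 95% interval −0.61 to 0.47, adjusted p = 0.932). Probe set 38037_at, at 6.83 and 7.26 without the drug and 6.97 and 6.75 with it, overlapped as well. The other 2 HBEGF probe sets were dim, at 2.59 to 3.75 log2. EREG, which encodes the ligand epiregulin, was near or below the filter on both of its probe sets, between 2.81 and 3.73 log2 on all arrays. Its difference of −0.05 ± 0.13 log2 (SE; limma adjusted p = 0.921) therefore describes signal not shown to exceed background.

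ERRFI1 encodes a cytoplasmic protein (also called MIG6) that binds EGFR-family kinases and inhibits them, and it is induced by the signal it limits. Its single probe set, 224657_at, read 8.83 and 9.56 log2 without the drug and 10.00 and 9.88 with it. Both YM155 arrays were higher, but untreated replicate 2 lay 0.74 log2 above untreated replicate 1, nearly as far as the group means were apart. The difference was 0.75 ± 0.27 log2 (SE, n = 2 per group; limma 95% interval 0.03 to 1.46, adjusted p = 0.375), the 301st most positive of 14043. It was 1.12 from untreated replicate 1 alone and 0.38 from untreated replicate 2 alone.

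Over all 24 probe sets above the filter, 4 were lower and 2 higher at an unadjusted limma p under 0.05, beside 6.06% and 5.03% of all 32768 probe sets tested. The 4 were the bright pairs of ERBB3 and VAV3, and the 2 were the probe sets of ERRFI1 and TGFA described first. As these genes were listed with earlier results of these data known, such counts show no excess in the family. The YM155 arrays lay below both untreated arrays for 6 of the 24 and above them for 5, beside 23.9% and 19.4% of all probe sets. At an adjusted p of 0.05 the count was 0, as for 0% of all probe sets.

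**Figure D3:**
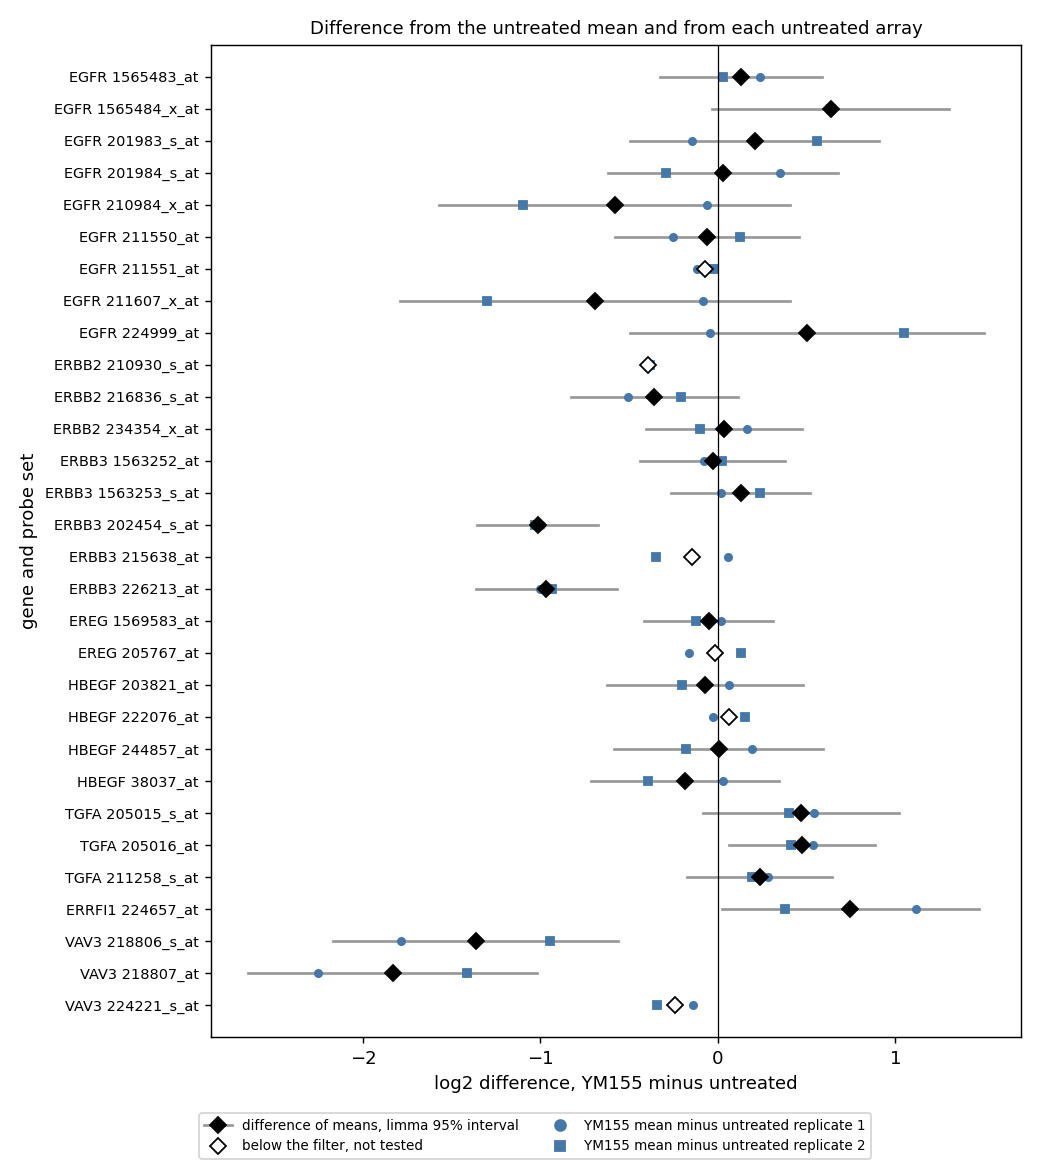
Log2 difference of YM155 minus untreated for all 30 probe sets (black diamonds, with the limma 95% interval for the 24 tested; open diamonds lie below the filter), with the YM155 mean minus each single untreated array in blue. The bright ERBB3 and VAV3 probe sets lay below 0 and all 3 TGFA probe sets above 0 from either untreated array, whereas 3 of the EGFR probe sets reached beyond −1 or 1 from untreated replicate 2 only.

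The genes whose 4 arrays most resembled VAV3 and ERRFI1, the members with the most negative and most positive difference, were found by Euclidean distance between log2 profiles centred on the untreated mean. Nearest to VAV3 were NIFK-AS1 (distance 0.36), at 6.79 and 5.77 log2 without the drug and 4.69 and 4.56 with it, JDP2 (0.57) and CHAC1 (0.59). JDP2 encodes a repressor that binds AP-1 sites, and CHAC1 an enzyme that degrades glutathione. Their differences were −1.66, −1.51 and −1.60 log2. Nearest to ERRFI1 were HMGCS1 (distance 0.08), an enzyme gene of cholesterol synthesis, at 6.99 and 7.82 log2 without the drug and 8.23 and 8.14 with it, HS3ST1 (0.11) and IFFO2 (0.13). Their differences were 0.78, 0.69 and 0.80 log2. The likeness rests on 4 arrays and includes the gap between the untreated ones.

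Apart from GRB7, no other pathway gene tested had a difference as large as that of ERBB3. Across 6 lists of other pathway genes, 52 of 70 were tested, and 21 had positive and 31 negative differences, with a median of −0.09 log2. At an unadjusted limma p under 0.05, 3 were lower and 0 higher, beside 7.48% and 5.23% of all genes tested, and 0 passed the adjusted threshold. The YM155 arrays lay below both untreated arrays for 16 of the 52 and above them for 10, beside 25.6% and 19.3% of all genes.

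The 2 largest of these differences belonged to receptor adaptors, GRB7 and GAB2. Of 13 adaptor and RAS activator genes, 3 had positive differences, beside 47.1% of all genes, and 10 negative ones, with a median of −0.13 log2 beside −0.02 for all genes. The 3 genes with an unadjusted p under 0.05 were GRB7, CRKL and EPS8, and whether this list differs from the others was not tested. GRB7, an adaptor that binds ERBB receptors and lies close to ERBB2 in the genome, read 5.90 and 7.20 log2 without the drug and 5.28 and 4.81 with it. Its difference was −1.51 ± 0.47 log2 (SE; limma adjusted p = 0.324), or −2.16 to −0.85 when single arrays were left out. GAB2, a docking protein gene, read 6.89 and 7.88 without the drug and 6.41 and 6.59 with it. Its difference of −0.89 ± 0.35 (SE; limma adjusted p = 0.408) ran from −1.38 to −0.39 with single arrays left out. For both genes untreated replicate 2 was the highest array. CRKL and EPS8, further adaptors, stood at −0.36 ± 0.13 each (SE; limma adjusted p = 0.355 and 0.375), and another CRKL probe set gave −0.02.

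Ligand shedding genes had 5 positive and 4 negative differences with a median of 0.03 log2. ADAM17, the protease that sheds TGFA and HBEGF among other ligands, read 9.70 and 9.45 log2 without the drug and 9.29 and 9.28 with it (−0.29 ± 0.15 SE; limma adjusted p = 0.5). ADAM9 stood at 0.30 ± 0.13 (SE; limma adjusted p = 0.442) on its brightest probe set, but its other probe sets gave −0.36 and −0.28. ADAM12 (0.29) and RHBDL3 (0.22) were dim.

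Genes of receptor downregulation were split, 7 of 15 positive and 8 negative, with a median of −0.06. RNF41, a ubiquitin ligase gene acting on ERBB3, stood at −0.38 ± 0.20 log2 (SE; limma adjusted p = 0.522), its other probe sets ranging from −0.37 to 0.41. LRIG1, a transmembrane inhibitor of ERBB receptors, stood at 0.34 ± 0.15 from a dim probe set, LRIG2 at 0.33 ± 0.48 and the endocytic adaptor gene EPS15 at 0.24 ± 0.13 (SE). Another EPS15 probe set gave −0.07, and those of LRIG1 and LRIG2 gave 0.08 and 0.13. LRIG2 changed sign over the arrays left out, from −0.38 to 1.04.

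Downstream kinases differed little. Of the 6 RAS, RAF, MEK and ERK genes tested, 4 were negative. The scaffold gene KSR1 stood at −0.38 ± 0.15 (SE, limma adjusted p = 0.408) on its brightest probe set. Its other 3 probe sets above the filter ranged from −0.10 to 0.09. The kinase gene MAP2K1 stood at −0.32 ± 0.25 (SE), with arrays that overlapped and −0.65 to 0.017 with single arrays left out. MAPK3 was at −0.12 and ARAF at 0.06. Among 7 PI3K and AKT genes, 3 were positive and 4 negative. The catalytic subunit genes PIK3CB (−0.36 ± 0.14 SE) and PIK3CD (−0.24 ± 0.12) stood lower and the regulatory subunit gene PIK3R1 (0.35 ± 0.16) higher. Another PIK3CD probe set gave −0.08, and those of PIK3CB and PIK3R1 gave −0.35 and 0.21. PDPK1 was at 0.30 ± 0.29 (SE) with arrays that overlapped, and ran from −0.11 to 0.71 with single arrays left out. Limma's adjusted p for these 4 ran from 0.402 to 0.730.

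Of the 7 other receptor and ligand genes, only NRG1 and NRG2 passed the filter, while ERBB4, EGF, BTC, NRG3 and NRG4 had probe sets that were too dim to test. NRG1 encodes neuregulin, the ligand of ERBB3. Its brightest probe set read 9.77 and 10.95 log2 without the drug and 9.87 and 9.70 with it, so that untreated replicate 2 again stood apart from the other 3. The difference was −0.57 ± 0.41 log2 (SE; limma adjusted p = 0.630), −1.16 to 0.01 with single arrays left out, and the other 4 NRG1 probe sets above the filter ranged from −0.17 to 1.10.

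**Figure D4:**
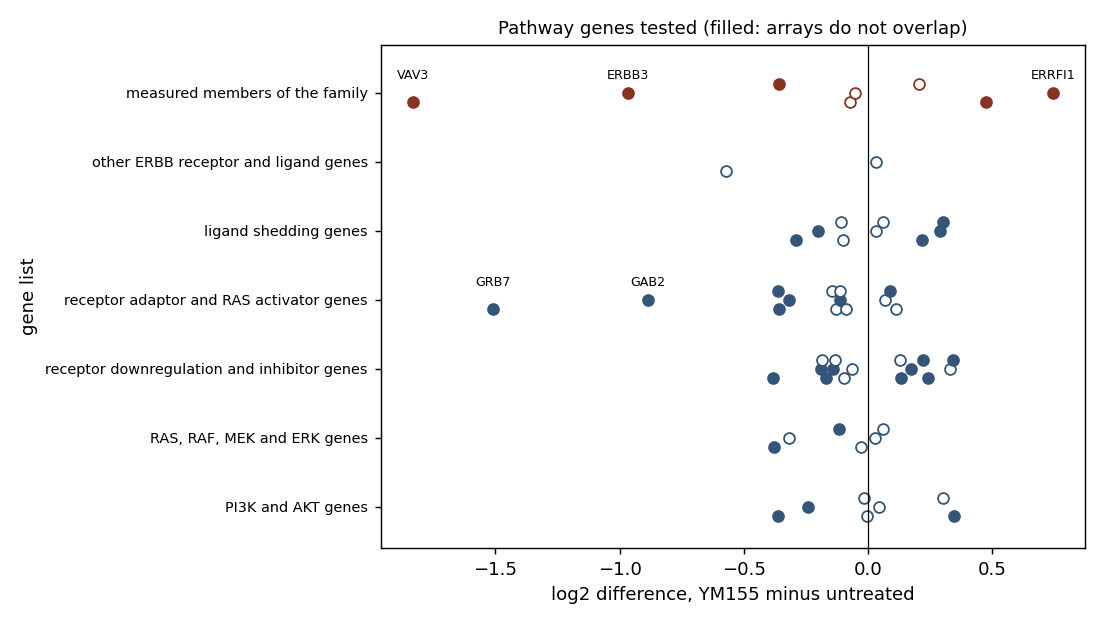
Log2 difference of YM155 minus untreated for the 8 measured members (red) and the 52 other pathway genes tested (blue), 1 point per gene, filled where the arrays of the groups did not overlap; genes beyond 0.7 in size are named. VAV3, GRB7, ERBB3 and GAB2 were the most negative and ERRFI1 the most positive.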

How the data were processed

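Biotinylated cRNA was made from 200 ng of RNA of each of 2 untreated and 2 YM155 samples, per the labels. Each deposited value is the intensity of 1 probe set on 1 array, which the authors computed by robust multi-array averaging (RMA; named in the submitters' processing notes), with settings not given in the sources used here. The values were linear (2.42 to 15214), so log2 was taken. RMA sets arrays to a common distribution, so a shift shared by all genes is not measured. Precision is limited by the number of arrays, which leaves 2 residual degrees of freedom.

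Gene symbols came from the platform annotation, and all 8 measured members matched RefSeq by gene ID. The 62 control probe sets and probe sets below the 40th percentile of mean log2 were left out. Genes (14043, brightest probe set) and all passing probe sets (32768) were tested in limma 3.58.1 under R 4.3.3 (lmFit, eBayes, two-sided, group only, Benjamini-Hochberg, threshold 0.05). On simulated data for this comparison (14043 genes, 100 shifted by 1 log2 and 100 by 2 log2), 6 of the former and 84 of the latter were called, with 4 calls among unshifted genes.

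The members and lists were chosen with earlier results of these data known. Named were all members, up to 4 genes of each pathway list by absolute difference, and the 3 genes nearest to each of the members with the most negative and most positive difference. A further list is not reported here. RefSeq promoter sequences are of GRCh38.p14. Same-numbered arrays did not deviate together (correlation over genes 0.00036), so replicate numbers were not taken as pairs. Alternatives were other filters, probe set rules, normalizations and variance models, array weights, a replicate block and single arrays left out; the ACTB 3' to 5' ratio as a covariate was added after the data were seen.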

Additional observations from a re-analysis of the deposited data

How the results depend on the processing

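With single arrays left out, genes called higher ranged from 0 to 604, genes called lower from 0 to 521 and members called from 0 to 1; the upper ends all came without untreated replicate 1. The signs of ERBB2, ERBB3, TGFA, ERRFI1 and VAV3 held under every alternative that gave them a value, and no other alternative called a member. EGFR, EREG and HBEGF changed sign with an array left out, with ranges of −0.14 to 0.56, −0.12 to 0.018 and −0.29 to 0.15, and so did their brightest probe sets. Further probe sets that changed sign were 1565483_at (−0.012 to 0.27), 201984_s_at (−0.29 to 0.35), 211550_at (−0.25 to 0.13) and 224999_at (−0.046 to 1.05) of EGFR, 234354_x_at of ERBB2 (−0.10 to 0.16), 1563252_at of ERBB3 (−0.15 to 0.094), and 244857_at (−0.21 to 0.22) and 38037_at (−0.40 to 0.027) of HBEGF. A second quantile normalization turned 244857_at of HBEGF to −0.0021; the cause was not tested. ERBB3 gave −0.47, EGFR 0.021 and ERBB2 −0.16 as the mean of all their probe sets above the filter, which for each includes dim ones. EGFR gave 0.50 when suffixed probe sets were left out. With the replicate number as a block, limma's adjusted p was 0.407 for VAV3 and 0.407 for ERBB3, and 0 genes were called. EREG has no value at the 60th percentile filter, and ERBB2, whose probe sets all carry a suffix, has none when suffixed ones are left out.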
